A study of Danio rerio with 4 samples.

Results

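Fatty acids are built, burned and stored by a small set of enzyme families, and 82 of the 32520 genes in the table of whole zebrafish larvae (Danio rerio) belong to them. They were chosen by symbol alone, as every gene named elovl, fads, scd, fasn, acaca, acacb, acsl, cpt1, cpt2, acad, hadh, acox, dgat, lpin, plin, agpat, gpam, pnpla, mogat, lpl, lipc or srebf, or for a peroxisome proliferator-activated receptor (ppara, pparg, ppard) and its coactivators (ppargc1). By role, 18 of them serve synthesis, 8 the activation of fatty acids, 20 oxidation, 17 storage, 10 lipolysis and 9 regulation. The control group was 2 libraries from untreated larvae. The PM2.5 group was 2 libraries from larvae given 12000000 smog particles from 72 to 120 hours after fertilization. Each group's RNA came from 5 to 7 whole larvae, and the labels give neither a strain nor separate clutches or exposures for the libraries. The spread behind the p-values is thus the one between libraries, and it may be no more than technical.

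Synthesis starts with acetyl-CoA carboxylase and fatty acid synthase, and desaturases and elongases of the elovl family then shape the chain. Acyl-CoA synthetases of the acsl family activate fatty acids. Carnitine palmitoyltransferases carry the activated chains into mitochondria, where acyl-CoA dehydrogenases and hydroxyacyl-CoA dehydrogenases shorten them, while acyl-CoA oxidases do so in peroxisomes. Surplus fatty acids are joined to glycerol by acyltransferases, with lipins acting as phosphatases on the way. The fat is kept in droplets coated by perilipins, and lipases free the fatty acids again. In a larva of this age the yolk is being used up, and liver, gut and muscle all handle these lipids.

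Levels are in TPM, the fraction of all transcripts that comes from a gene after correction for its length. Genes can thus be compared with each other, but no read depth is kept. Depth per library is therefore not known here. Between 24121 and 25138 genes were above 0 in a library, with the lowest number in PM2.5 library 1. Of 20874 tested genes 8.46% were higher and 2.62% lower in the PM2.5 libraries (limma on log2(TPM + 1), adjusted p under 0.05). The groups did not overlap in 56.3% of tested genes, 36.6% with PM2.5 higher and 19.7% with PM2.5 lower. Of the genes past the limma threshold 76.4% were higher as deposited, 61.2% with TMM-type rescaling and 57.9% with quantile normalization. Over all tested genes the median log2 fold change was 0.07 as deposited and -0.04 after quantile normalization, and small rises below are read against that shift. Markers of hepatocytes, enterocytes, skeletal muscle, heart muscle and macrophages were present, with none of the 48 found at 0 in every library. In whole-larva RNA, fewer cells of a type and less RNA per cell cannot be told apart.

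Of the 82 genes 81 were tested, and 8 rose and 3 fell. That is 9.88% higher and 3.70% lower, near the shares of all tested genes given above. The 8 were the elongase genes elovl1a, elovl1b, elovl7a and elovl7b, the acyl-CoA synthetase gene acsl3a, the oxidation gene hadhab and the storage genes mogat3b and plin2. The 3 were the elongase gene elovl2, the lipin gene lpin1 and the lipase gene pnpla2. After TMM-type rescaling 4 of the genes were higher and 5 lower, against 1274 and 809 of all 20874 tested genes. After quantile normalization 3 were higher and 6 lower, against 1324 and 962. In each of the 4 fits that left out 1 library elovl7b rose. Beside it elovl1a rose without PM2.5 replicate 1, lpin1 fell without control replicate 1 and without control replicate 2, and no other of the 11 passed. The groups did not overlap in 36 members with PM2.5 higher (44.4%, against 36.6% of all tested genes) and in 19 with PM2.5 lower (23.5%, against 19.7%). After TMM-type rescaling these counts were 27 and 25 (33.3% and 30.9%, against 28.3% and 28.4% of all tested genes), and after quantile normalization 26 each way (32.1%, against 26.0% and 32.1%). The median log2 fold change was 0.12 over the 81, against 0.07 over all tested genes.

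**Figure D1:**
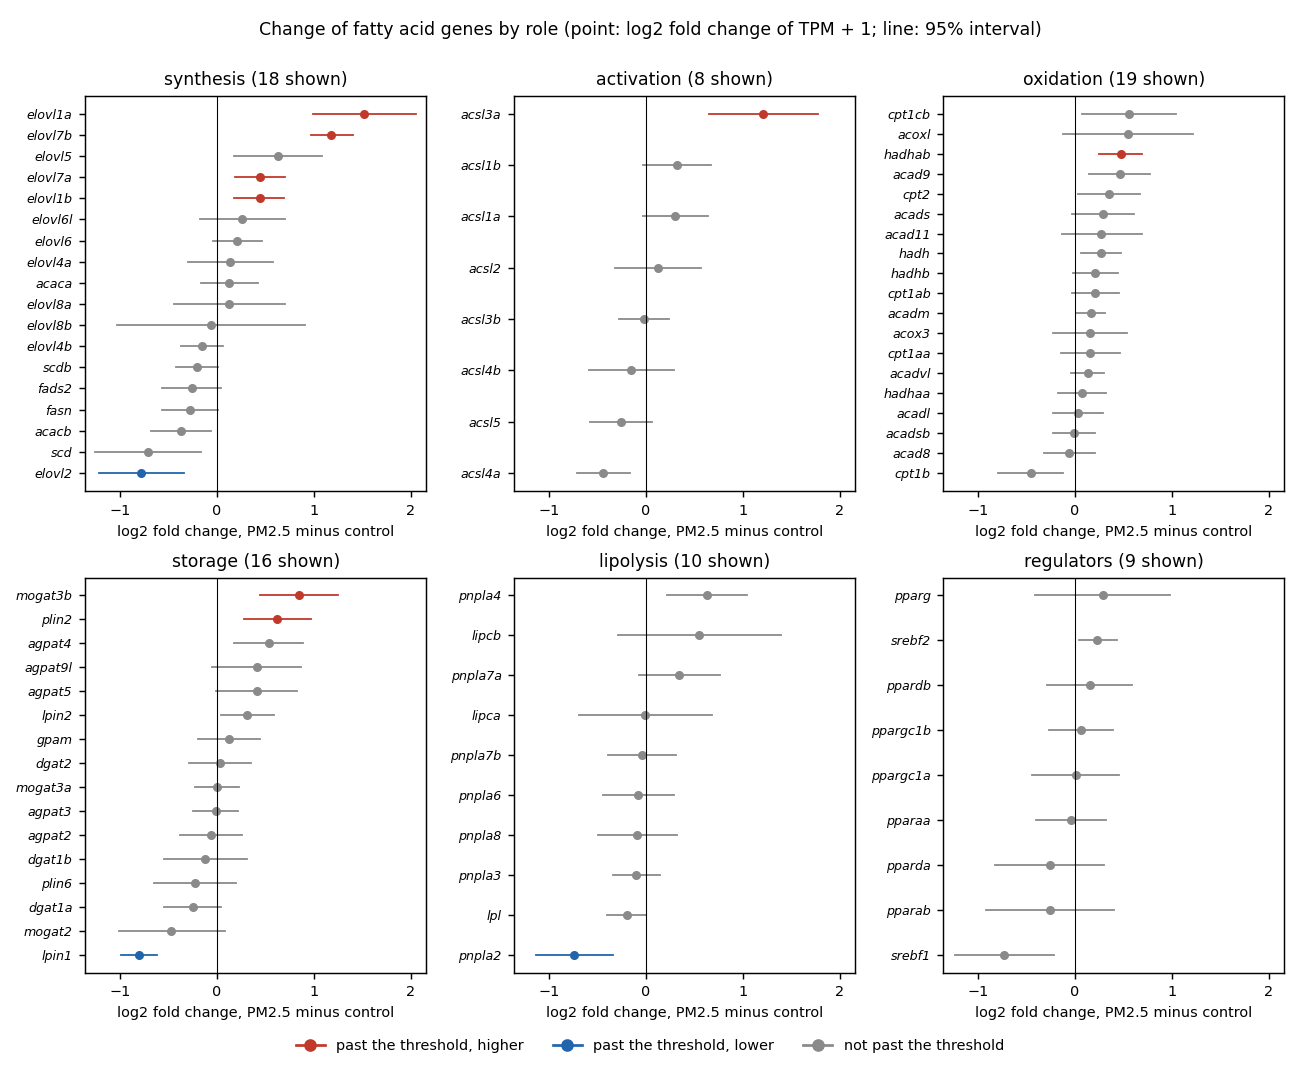
Log2 fold change (PM2.5 minus control, on log2(TPM + 1)) of 80 of the 81 tested genes in 6 panels by role, with 95% confidence intervals from limma as lines. Red points passed the threshold as higher and blue as lower. The oxidation panel lies mostly right of 0 by small amounts, whereas synthesis and storage spread to both sides, from -0.78 to 1.52 and from -0.80 to 0.85.

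The control levels spanned a wide range. In the control libraries 10 of the 82 genes averaged at least 40 TPM, 20 lay between 20 and 40 TPM, 37 between 5 and 20 TPM and 15 below 5 TPM. The highest mean levels were those of lpin1 (126 TPM), the medium-chain dehydrogenase gene acadm (124 TPM), the acyltransferase gene agpat3 (108 TPM) and the very-long-chain dehydrogenase gene acadvl (89.6 TPM). The lowest was plin1, which encodes the perilipin of fat cells in mammals, at 0.206 and 0.310 TPM in the controls. It was at 1.16 and 0.638 TPM in the PM2.5 libraries, stayed under the minimum mean of 1 TPM and was not tested. Its groups did not overlap, but levels this low rest on few reads.

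The synthesis genes past the threshold as deposited were all elongases. Among the 12 elongases 4 rose (33.3%, against 8.46% of all tested genes) and 1 fell (8.33%, against 2.62%). After either rescaling 2 rose and 1 fell. Of all 20874 tested genes 1274 rose and 809 fell with the TMM type, and 1324 and 962 with quantile normalization. The 6 genes of chain building and desaturation held none past the threshold, as so few genes often would at the shares of all tested genes. The elongase gene with the highest level in exposed larvae was elovl7b (ENSDARG00000100185, on the unplaced scaffold KN150589.1), a relative of the mammalian elongase of saturated long chains. It stood at 37.1 and 40.5 TPM in control larvae and at 93.9 and 85.2 TPM in the PM2.5 libraries. Both PM2.5 libraries lay far above both controls, with a log2 fold change of 1.18 (SE 0.09, adjusted p = 0.001). Its call held in all 10 alternatives, and the adjusted p ran from 0.026 to 0.043 when 1 library was left out.

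Another strong rise was in elovl1a (ENSDARG00000099960, chromosome 2), an elongase of saturated very-long chains, as used in sphingolipids of mammals. It was at 6.88 and 6.12 TPM in control larvae and at 16.4 and 25.7 TPM in the PM2.5 libraries. The groups were far apart, but the PM2.5 libraries also differed from each other by a factor of 1.57. The log2 fold change was 1.52 (SE 0.22, adjusted p = 0.0099), and the adjusted p rose to between 0.045 and 0.124 when 1 library was left out.

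The paralogs of both genes rose as well, with smaller fold changes. The level of elovl7a (chromosome 8) was 21.4 and 20.7 TPM in the controls and 27.5 and 30.6 TPM in the PM2.5 libraries, a log2 fold change of 0.45 (SE 0.10, adjusted p = 0.047). The level of elovl1b (chromosome 11) was 20.6 and 19.8 TPM against 26.4 and 29.1 TPM, a log2 fold change of 0.44 (SE 0.10, adjusted p = 0.049). In both paralogs the groups did not overlap, yet neither call held after either rescaling (adjusted p = 0.082 and 0.088 with the TMM type), without a minimum level (0.066 and 0.068) or in any fit with 3 libraries. That of elovl1b was also lost with a pseudocount of 0.1 TPM (0.051). The treatment of reads shared between paralogs is not known, so the split within such pairs is uncertain.

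The elongase gene that fell was elovl2 (ENSDARG00000045414, chromosome 24), which extends polyunsaturated chains on the way to docosahexaenoic acid. It was at 6.88 and 6.44 TPM in control larvae and at 3.23 and 3.69 TPM in the PM2.5 libraries. Its mean level was lower by 48.0%, with a log2 fold change of -0.78 (SE 0.18, adjusted p = 0.045). Neither the fit without a minimum level (0.083) nor any fit with 3 libraries (0.114 to 0.268) kept this call. Another enzyme of the polyunsaturated route, elovl5 (chromosome 13), stood the other way, at 3.36 and 4.01 TPM against 6.49 and 5.97 TPM, and did not pass (log2 fold change 0.63, adjusted p = 0.087).

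Of the other 6 elongase genes none passed. The groups did not overlap in elovl6 (0.21), which extends palmitate, in elovl6l (0.26) and in elovl4b (-0.15), a relative of the mammalian elongase of ultra-long chains in retina and skin. After either rescaling elovl6 and elovl6l overlapped as well. The groups of elovl4a, elovl8a and elovl8b overlapped as deposited. Summed over the 12 elongases, the level was 193 and 201 TPM in the controls and 276 and 286 TPM in the PM2.5 libraries, 42.3% higher in the mean. Without elovl7b, left out after its value was seen, the sum was 20.7% higher. The share of elovl7b in the summed elongase level was 19.2% and 20.1% in the controls and 34.0% and 29.8% in the PM2.5 libraries.

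**Figure D2:**
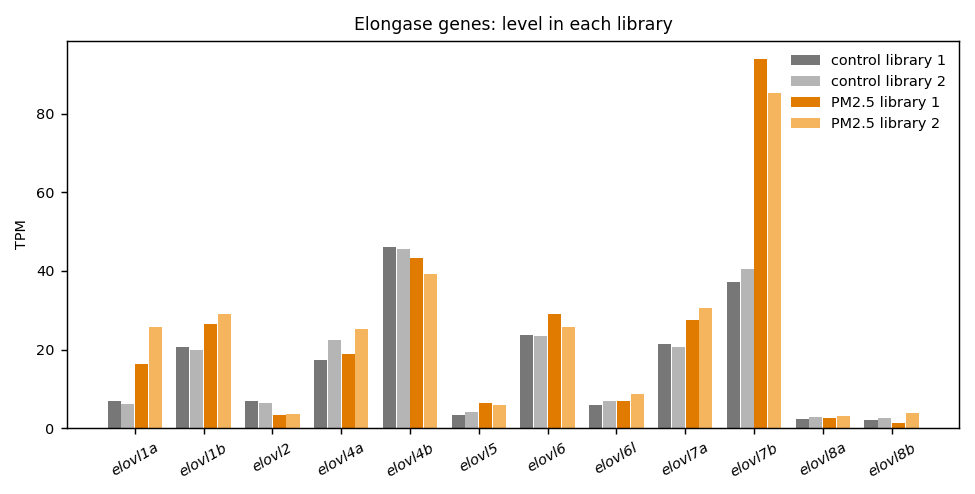
TPM of the 12 elongase genes, with 1 bar for each library (grey: controls; orange: PM2.5). The bars of elovl7b reach 93.9 and 85.2 TPM in the PM2.5 libraries against 37.1 and 40.5 TPM in the controls, elovl1a rises from a low level, and the bars of elovl2 drop to 3.23 and 3.69 TPM.

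Of the 6 other synthesis genes none passed the threshold. In 5 of the 6 both PM2.5 libraries lay below both controls, against 19.7% of all tested genes. The count was also 5 with TMM-type rescaling and with quantile normalization, against 28.4% and 32.1% of all tested genes. These 6 were split from the elongases with earlier results of these data known. Over all 18 synthesis genes both PM2.5 libraries lay above both controls in 8 (44.4%, against 36.6% of all tested genes). They lay below in 7 (38.9%, against 19.7%). After either rescaling these were 5 (27.8%, against 28.3% and 26.0%) and 7 (38.9%, against 28.4% and 32.1%). Hepatocyte markers fell in the same libraries in 3 of 11 genes (27.3%, against 2.62% of all tested genes). These were fabp10a (-0.33, not held after quantile normalization), serpina1l (-0.39) and ahsg2 (-1.51). The marker ttr rose (0.37, not held after either rescaling). The summed level of the 11 markers was lower by 9.3%, and their part in the values of the synthesis genes was not tested. The fatty acid synthase gene fasn (chromosome 12) was at 14.9 and 16.1 TPM in control larvae and at 12.5 and 12.7 TPM in the PM2.5 libraries, with a log2 fold change of -0.28 (95% confidence interval -0.57 to 0.01, adjusted p = 0.191). The stearoyl-CoA desaturase genes, which make monounsaturated chains, were lower as well. The level of scd was 3.56 and 3.96 TPM against 1.73 and 2.11 TPM (log2 fold change -0.71, adjusted p = 0.107), and that of scdb 45.3 and 50.0 TPM against 42.0 and 40.3 TPM (-0.21, adjusted p = 0.201).

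The desaturase gene of polyunsaturated synthesis, fads2 (chromosome 25), was at 15.0 and 14.4 TPM in control larvae and at 11.5 and 12.8 TPM in the PM2.5 libraries (log2 fold change -0.26, adjusted p = 0.243). The values of the acetyl-CoA carboxylase genes had opposite signs, a difference that was not tested. The gene acacb, whose mammalian product sits at mitochondria and restrains fatty acid import, was at 22.0 and 26.7 TPM against 18.3 and 18.8 TPM (log2 fold change -0.37, adjusted p = 0.124), and it passed as lower after quantile normalization (adjusted p = 0.0496). Its paralog acaca, the cytosolic form, was at 14.9 and 17.0 TPM against 17.5 and 17.4 TPM (0.13, adjusted p = 0.553). Summed over the 6 genes the level was 116 and 128 TPM in the controls and 104 TPM in each PM2.5 library, lower in the mean by 14.9%. Over all 18 synthesis genes it was 309 and 329 TPM against 379 and 390 TPM, 20.4% higher. Without elovl7b it was 272 and 289 TPM against 286 and 304 TPM, 5.2% higher as deposited with overlapping groups.

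The regulators of synthesis had values of opposite sign, a difference that was not tested. The gene srebf1 (ENSDARG00000067607, chromosome 3), whose product switches on fatty acid synthesis genes in vertebrates, was at 37.2 and 47.6 TPM in control larvae and at 20.3 and 30.7 TPM in the PM2.5 libraries. The groups did not overlap, though each spread widely. The log2 fold change was -0.73 (SE 0.21, adjusted p = 0.082), and the gene passed as lower after TMM-type rescaling (adjusted p = 0.046) and quantile normalization (0.049). The gene srebf2, best known for cholesterol synthesis, was at 36.0 and 37.1 TPM against 43.5 and 42.7 TPM (0.23, adjusted p = 0.131).

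The 7 receptor and coactivator genes named ppar held none past the threshold. As deposited, in each of pparaa, pparab, pparda, ppardb, pparg, ppargc1a and ppargc1b the groups overlapped, and the adjusted p lay between 0.520 and 0.984. After either rescaling both PM2.5 libraries lay below both controls in 1 of the 7, pparda (14.3%, against 28.4% and 32.1% of all tested genes). These receptors sense fatty acids, with ppara types linked to oxidation and pparg to fat storage in mammals. The values of pparg show the spread: 3.82 and 4.40 TPM in the controls and 3.75 and 7.14 TPM in the PM2.5 libraries, with a 95% confidence interval of the log2 fold change from -0.41 to 0.98. An interval this wide does not show that the gene was at the same level in both groups.

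Activation genes were mixed as well, with 1 of 8 past the threshold, as higher (12.5%, against 8.46% of all tested genes). The gene acsl3a (ENSDARG00000032079, chromosome 15), whose mammalian relative works at the endoplasmic reticulum and at growing lipid droplets, was at 2.31 and 3.77 TPM in control larvae and at 7.88 and 8.52 TPM in the PM2.5 libraries. The log2 fold change was 1.21 (SE 0.23, adjusted p = 0.024), which was lost without a minimum level (0.054) and in every fit with 3 libraries (0.078 to 0.160). Its paralog acsl3b, at a higher level, was at 19.7 TPM in the mean of the controls and 19.5 TPM in that of the PM2.5 libraries.

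The largest acsl level belonged to acsl4a (chromosome 14), whose mammalian relative prefers arachidonate. It was at 30.3 and 31.6 TPM in control larvae and at 24.2 and 21.0 TPM in the PM2.5 libraries (log2 fold change -0.44, adjusted p = 0.055). It passed as lower after TMM-type rescaling (adjusted p = 0.041) and quantile normalization (0.033). The genes acsl1a (0.30) and acsl1b (0.32) were higher and acsl5 (-0.26) lower in both PM2.5 libraries, none past the threshold. The summed level of the 8 genes was between 104 and 112 TPM in every library.

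Most oxidation genes were higher in both PM2.5 libraries, by small steps. In 16 of 20 both PM2.5 libraries were above both controls, 80.0% against 36.6% of all tested genes, and in 1 both were below, 5.0% against 19.7%. The threshold was passed by 1 gene, hadhab, as higher, 5.0% against 8.46% of all tested genes. The median log2 fold change was 0.21, and 17 of the 20 values were above 0. After TMM-type rescaling 10 genes (50.0%, against 28.3% of all tested genes) did not overlap on the higher side and 3 (15.0%, against 28.4%) on the lower. After quantile normalization these were 9 genes (45.0%, against 26.0%) and 3 (15.0%, against 32.1%), with 14 of 20 values above 0. No oxidation gene passed after either rescaling, and the median was 0.09 after quantile normalization against -0.04 over all tested genes.

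**Figure D3:**
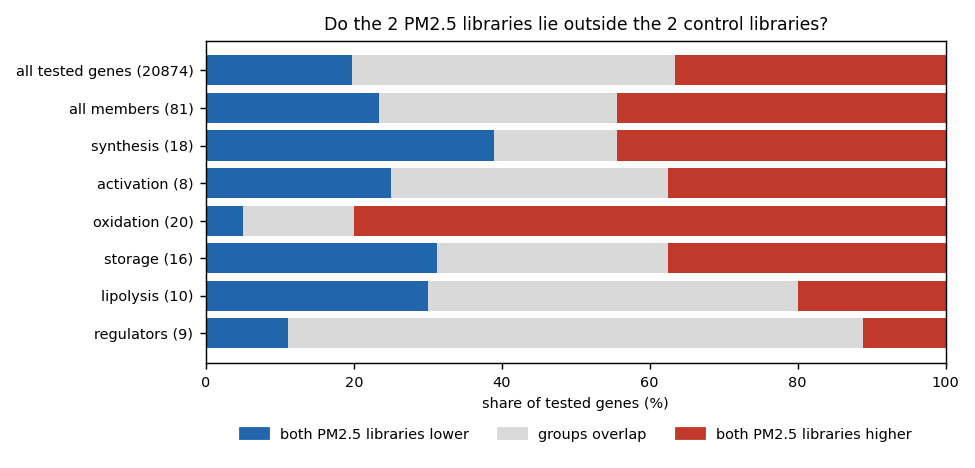
Share of tested genes (x axis, %) whose 2 PM2.5 libraries lie both below (blue) or both above (red) the 2 control libraries, or overlap with them (grey), for all tested genes, all members and each role, with the number tested in brackets. Red fills 80.0% of the oxidation bar and 36.6% of the bar of all tested genes, and the regulators overlap the most.

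The gene that passed, hadhab (ENSDARG00000060594, chromosome 17), encodes an alpha subunit of the mitochondrial trifunctional protein, which carries out the last steps of each round for long chains. It was at 32.8 and 31.0 TPM in control larvae and at 46.3 and 42.9 TPM in the PM2.5 libraries. The log2 fold change was 0.47 (SE 0.09, adjusted p = 0.025), not held after TMM-type rescaling (adjusted p = 0.071), quantile normalization (0.068) or in any fit with 3 libraries (0.088 to 0.177). The paralog hadhaa was at 20.2 TPM in the mean of the controls and 21.3 TPM in that of the PM2.5 libraries, and its direction turned after either rescaling (log2 fold change 0.07 as deposited, -0.01 after TMM-type rescaling). The beta subunit gene hadhb (0.21) and the hydroxyacyl-CoA dehydrogenase gene hadh (0.27) did not pass, although the groups did not overlap in either.

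The carnitine palmitoyltransferases, which gate entry into mitochondria, held no gene past the threshold, and 1 of the 5 stood apart in direction. The gene cpt1b (chromosome 18), the muscle form in mammals, was at 15.0 and 12.7 TPM in control larvae and at 9.75 and 9.71 TPM in the PM2.5 libraries (log2 fold change -0.46, adjusted p = 0.092). The genes cpt1aa and cpt1ab, relatives of the mammalian liver form, had log2 fold changes of 0.15 and 0.21, the brain-type gene cpt1cb 0.56 and the inner membrane gene cpt2 0.35. As deposited the groups did not overlap in any of the 5 genes, against 56.3% of all tested genes without overlap in either direction. After either rescaling they overlapped in cpt1aa. The share of cpt1b in the summed level of the 4 cpt1 genes was 25.3% and 22.6% in the controls and 15.3% and 16.4% in the PM2.5 libraries.

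Transcripts of skeletal muscle were lower in the PM2.5 libraries as deposited. All 12 skeletal muscle markers fell, against 2.62% of all tested genes. With TMM-type rescaling 10 fell and with quantile normalization 11, against 809 and 962 of all 20874 tested genes. This marker list was chosen with earlier results of these data known, so its share is no independent evidence. The summed level of the 12 markers was between 75730 and 77873 TPM in the controls. It was between 61105 and 63400 TPM in the PM2.5 libraries, lower in the mean by 18.9%. The mean level of cpt1b was lower by 29.7%, and the part of the muscle markers in this was not tested. The 5 heart muscle markers summed to 66.6 and 60.9 TPM against 76.3 and 84.8 TPM.

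None of the 8 acyl-CoA dehydrogenase genes passed. The largest difference was that of acad9 (0.46, adjusted p = 0.079), whose mammalian product also helps assemble respiratory complex I. The abundant acadm was at 123 and 126 TPM in control larvae and at 143 and 135 TPM in the PM2.5 libraries (log2 fold change 0.16, adjusted p = 0.163), and acadvl had 0.13 (adjusted p = 0.302). The 2 members that serve amino acid breakdown, acad8 for valine and acadsb for isoleucine, had log2 fold changes of -0.06 and -0.01. Their groups overlapped as deposited. After either rescaling both PM2.5 libraries lay below both controls in acad8 and acadsb, as in 28.4% and 32.1% of all tested genes. The oxidase genes acox3 (0.15) and acoxl (0.55) were higher in both PM2.5 libraries without passing, and acadm, acadvl and acox3 overlapped between groups after either rescaling. Summed over all 20 oxidation genes the level was 616 and 598 TPM in the controls and 692 and 678 TPM in the PM2.5 libraries. As deposited this was 12.9% higher in the mean, and the sum was not rescaled. The TMM-type factors, by which levels are divided, were 0.944 and 0.995 for the controls and 1.012 and 1.052 for the PM2.5 libraries. Rescaling thus makes such a rise smaller.

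**Figure D4:**
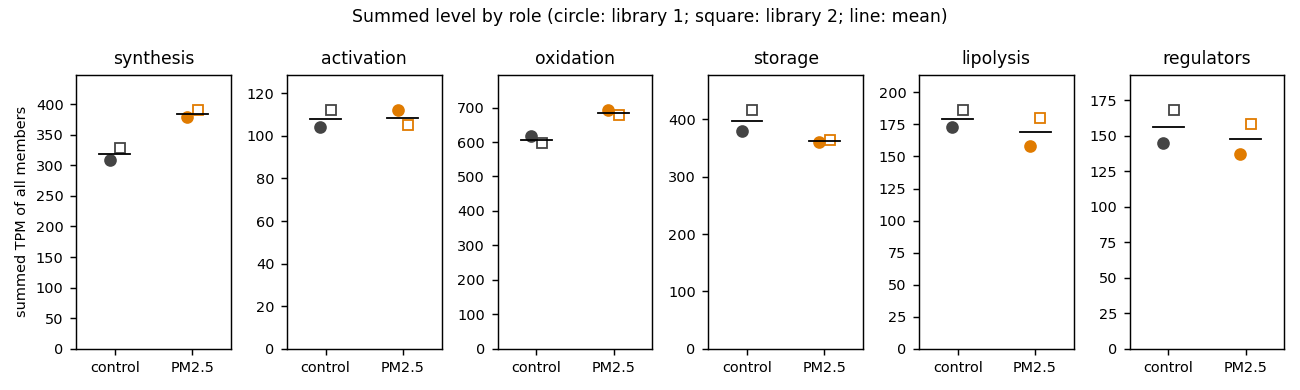
Summed TPM of all members of each role in each library (circles: library 1; squares: library 2; lines: means), on y axes that start at 0 and differ between panels. The sums are as deposited and were not rescaled. Oxidation and synthesis sums are higher in both PM2.5 libraries (the synthesis groups overlap without elovl7b), and the storage sum is lower (higher without lpin1). The sums of activation, lipolysis and regulators overlap between the groups.

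Of 16 tested storage genes 2 were higher (12.5%, against 8.46% of all tested genes) and 1 lower (6.25%, against 2.62%). After TMM-type rescaling 1 was higher and 1 lower, against 1274 and 809 of all 20874 tested genes. After quantile normalization 0 were higher and 1 lower, against 1324 and 962. The largest fall was in lpin1 (ENSDARG00000020239, chromosome 17), the phosphatidate phosphatase that makes diacylglycerol and, in mammals, is abundant in muscle and fat. It was at 119 and 133 TPM in control larvae and at 71.8 and 71.1 TPM in the PM2.5 libraries. The level was lower by 43.1% in the mean, with a log2 fold change of -0.80 (SE 0.08, adjusted p = 0.0023). With PM2.5 replicate 1 left out the adjusted p was 0.059, and with PM2.5 replicate 2 left out it was 0.054. In the same libraries the muscle markers described above were lower by 18.9% in their sum, with single markers from -7.7% to -48.8%. Their part in the fall of lpin1 was not tested. The paralog lpin2 was higher in both PM2.5 libraries without passing (0.31, adjusted p = 0.143).

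The droplet coat gene plin2 (ENSDARG00000042332, chromosome 15), found on lipid droplets of most cell types, rose. It was at 7.33 and 6.69 TPM in control larvae and at 11.8 and 10.9 TPM in the PM2.5 libraries, with a log2 fold change of 0.62 (SE 0.14, adjusted p = 0.044). Neither rescaling kept the call (adjusted p = 0.073 and 0.089), nor did the fit without a minimum level (0.076) or any fit with 3 libraries (0.128 to 0.260). Macrophage markers rose in the same libraries in 5 of 10 genes (50.0%, against 8.46% of all tested genes) and fell in none. Like the other marker lists, this one was chosen with earlier results of these data known, so its share is no independent evidence. The summed level of the 10 macrophage markers was 54.3 and 58.5 TPM in the controls and 269 and 255 TPM in the PM2.5 libraries. Most of this rise lay in lygl1 (mean of 5.51 TPM in the controls and 83.7 TPM with PM2.5), ctss2.2 (6.71 and 56.4 TPM) and grn2 (7.75 and 56.3 TPM). The other markers that passed were mfap4 (1.37, adjusted p = 0.0065) and lcp1 (1.09, adjusted p = 0.004). Both passed after either rescaling as well. The genes csf1ra (0.05), mpeg1.1 (0.63), marco (0.60), spi1b (0.38) and cd74a (0.45) did not pass. The part of macrophages in the rise of plin2 was not tested. The log2 fold change of the teleost perilipin gene plin6 was -0.23 (adjusted p = 0.461).

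The gene mogat3b (ENSDARG00000003635, chromosome 5), named for a monoacylglycerol acyltransferase, an enzyme type that rebuilds fat from absorbed monoacylglycerol, was at 7.11 and 5.54 TPM in control larvae and at 12.6 and 11.6 TPM in the PM2.5 libraries. The log2 fold change was 0.85 (SE 0.17, adjusted p = 0.027). The call was lost after quantile normalization (0.057), without a minimum level (0.054) and in every fit with 3 libraries (0.113 to 0.190). Its relatives did not pass: mogat3a was at 33.1 TPM in the mean of both groups, and mogat2 at 5.46 against 3.62 TPM (-0.47, adjusted p = 0.242). The enterocyte markers went both ways beside it, with 2 of 10 higher and 3 lower, against 8.46% and 2.62% of all tested genes. Their summed level was 9.4% higher in the PM2.5 libraries with apoa1a, at 2222 and 2172 TPM against 2783 and 2645 TPM. Without this gene, left out after its value was seen, the other 9 summed to 1156 and 1129 TPM against 933 and 949 TPM, lower by 17.6%. These 9 did not move together. The marker anpepb rose (log2 fold change 0.84, adjusted p = 0.0034), also after either rescaling. The 3 that fell were fabp2 (-0.39), slc15a1b (-1.07) and chia.2 (-0.56). The part of enterocytes in the rise of mogat3b was not tested.

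None of the gpam, agpat and dgat genes of fat assembly passed the threshold. The glycerol-phosphate acyltransferase gene gpam (0.12) and the genes agpat2 (-0.06) and agpat3 (-0.01) overlapped between groups. The genes agpat4 (0.54, adjusted p = 0.073), agpat5 (0.41) and agpat9l (0.41) were higher in both PM2.5 libraries. The closing enzymes of triacylglycerol synthesis had log2 fold changes of -0.25 (dgat1a), -0.12 (dgat1b) and 0.03 (dgat2). Summed over storage genes the level was 380 and 416 TPM in the controls and 360 and 365 TPM in the PM2.5 libraries, lower in the mean by 9.0%. Without lpin1, left out after its value was seen, the sum as deposited was higher in the PM2.5 libraries. It was 262 and 284 TPM against 289 and 294 TPM. Neither storage sum was rescaled, and the TMM-type factors given above make a small rise of this kind smaller.

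Among 10 lipolysis genes 1 passed, as lower (10.0%, against 2.62% of all tested genes). This was pnpla2 (ENSDARG00000089390, chromosome 25), the adipose triglyceride lipase that opens droplet fat. It was at 9.26 and 11.4 TPM in control larvae and at 5.68 and 5.85 TPM in the PM2.5 libraries, with a log2 fold change of -0.74 (SE 0.16, adjusted p = 0.040). It passed after TMM-type rescaling (0.024) and quantile normalization (0.021), but not without a minimum level (0.075) or in any fit with 3 libraries (0.136 to 0.287). Another patatin-like gene, pnpla4 (chromosome 1), was at 4.01 and 4.10 TPM against 7.14 and 6.52 TPM without passing (0.63, adjusted p = 0.070).

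The lipoprotein lipase gene lpl (chromosome 22), which frees fatty acids from circulating lipoproteins, was at 79.1 and 77.4 TPM in control larvae and at 63.9 and 72.0 TPM in the PM2.5 libraries (log2 fold change -0.20, adjusted p = 0.178). The hepatic lipase genes lipca (-0.01) and lipcb (0.55) overlapped between groups. Hepatocyte markers, measured beside them, were lower in 3 of 11 genes and higher in 1 (27.3% and 9.09%, against 2.62% and 8.46% of all tested genes). Their summed level was between 5792 and 6046 TPM in the controls and between 5318 and 5421 TPM in the PM2.5 libraries. The other pnpla genes, pnpla3, pnpla6, pnpla7a, pnpla7b and pnpla8, had log2 fold changes between -0.10 and 0.34.

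**Figure D5:**
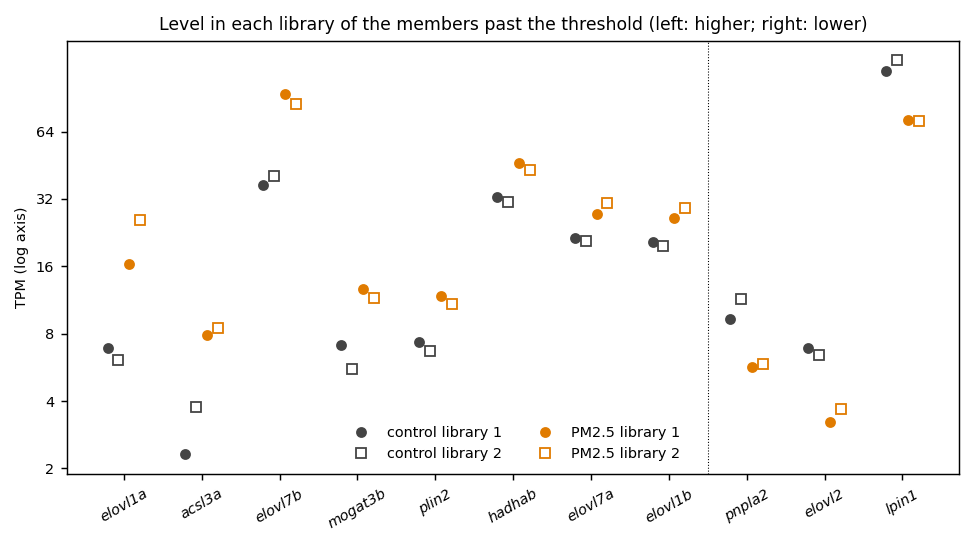
TPM (log axis) in each library of the 8 genes that rose (left of the dotted line) and the 3 that fell (right), with controls in grey, PM2.5 libraries in orange, circles for library 1 and squares for library 2. In none of the 11 genes do the groups overlap. The PM2.5 libraries of elovl1a and the control libraries of acsl3a lie farthest apart within a group.

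Of 65 other genes of these pathways, listed by symbol, 63 were found and 57 tested, with 5 higher (8.77%) and 2 lower (3.51%), near the 8.46% and 2.62% of all tested genes. After TMM-type rescaling 1 was higher and 4 lower, against 1274 and 809 of all 20874 tested genes. After quantile normalization 1 was higher and 5 lower, against 1324 and 962. In oxidation 3 of 20 rose and 1 fell (15.0% and 5.0%, against 8.46% and 2.62% of all tested genes). The carnitine-acylcarnitine carrier gene slc25a20 was at 53.7 and 59.1 TPM in control larvae and at 71.7 and 72.0 TPM in the PM2.5 libraries (log2 fold change 0.35, adjusted p = 0.043). The electron transfer flavoprotein gene etfb (0.31) and the enoyl-CoA isomerase gene eci2 (0.44) rose as well, and the peroxisomal carrier protein gene scp2a (-0.36) fell. In none of the 3 that rose did the call hold after either rescaling, and none of the 4 calls held in a fit with 3 libraries. The groups did not overlap on the higher side in 13 of the 20 (65.0%, against 36.6% of all tested genes) and on the lower side in 2 (10.0%, against 19.7%). After TMM-type rescaling these were 9 and 3 (45.0% and 15.0%, against 28.3% and 28.4% of all tested genes). After quantile normalization they were 9 and 5 (45.0% and 25.0%, against 26.0% and 32.1%).

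In the other synthesis genes 1 of 16 tested rose and 1 fell (6.25% each, against 8.46% and 2.62% of all tested genes). After either rescaling none rose and 2 fell. Of all 20874 tested genes 1274 rose and 809 fell with the TMM type, and 1324 and 962 with quantile normalization. The gene that rose was hacd3 (0.55), a dehydratase of the elongation cycle. Its relatives hacd2 (0.17) and hacd4 (0.64) were higher without passing. Another relative, hacd1, was lower without passing as deposited (-0.34, adjusted p = 0.059). It passed as lower after TMM-type rescaling (0.036) and quantile normalization (0.022). The call of hacd3 was lost after TMM-type rescaling (0.055), quantile normalization (0.060) and in every fit with 3 libraries (0.110 to 0.194). The gene that fell was insig1, which holds the srebf proteins in the endoplasmic reticulum and is itself one of their targets in mammals. It was at 19.6 and 17.8 TPM in control larvae and at 9.54 and 11.8 TPM in the PM2.5 libraries (log2 fold change -0.76, adjusted p = 0.024), and no fit with 3 libraries kept the call (0.073 to 0.209). Among 21 tested storage and mobilization genes mgll rose (4.76%, against 8.46% of all tested genes) and none fell. With TMM-type rescaling 1 fell and with quantile normalization 2, against 809 and 962 of all tested genes. The gene mgll encodes monoacylglycerol lipase, the enzyme of the last step of fat breakdown. It was at 26.7 and 28.3 TPM against 76.0 and 74.1 TPM (log2 fold change 1.42, SE 0.08, adjusted p = 0.00039), and its call held without any 1 library (0.016 to 0.037). The hormone-sensitive lipase genes lipea (0.48) and lipeb (0.23) and the fatty acid uptake gene cd36 (-0.43) did not pass.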

How the data were processed

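RNA from whole larvae was sequenced in 4 libraries, 2 per group, placed by their titles. The authors deposited 1 table of TPM values. Build GRCz11, cutadapt 1.18 and STAR 2.6.1c appear per the submitters' processing notes, and the counting program, annotation and strand setting were not stated. Of 32925 deposited rows, 405 repeated an ID with equal values and were dropped. TPM values are shares without depth, so higher shares of some genes mean lower ones elsewhere.

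The test was limma 3.58.1 (R 4.3.3) on log2(TPM + 1) over the 20874 genes averaging 1 TPM or more, with group as its single term, eBayes with trend, two-sided p-values, Benjamini-Hochberg adjustment over all of them and a threshold of 0.05. This scale understates changes of low genes. To 2 residual degrees of freedom the prior added 4.15. In 20 simulated sets of 20874 genes with 200 changed, 3.67%, 27.0% and 73.6% of changes of 0.5, 1 and 2 (log2) were recovered and 5.75% of calls were false. The simulated spreads came from limma's own fit, and fewer genes were changed than the 2313 called in the data. These shares thus check the procedure and need not hold for the real libraries. Alternatives were a pseudocount of 0.1 TPM, a minimum mean of 5 TPM, no minimum, TMM-type rescaling (a trimmed mean of log ratios of TPM), quantile normalization, a replicate block and leaving out each library. Named are all members past the threshold and the defining genes of each step, of which 1 enters all counts and sums but is not reported here. Members, roles, lists and tests were chosen with earlier results of these data known. List symbols were matched to the deposited table and a reference table of gene names, and chromosomes are those of the deposited table. Protein and promoter sequences were not used here.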

Additional observations from a re-analysis of the deposited data

How the results depend on the processing

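With a pseudocount of 0.1 TPM or a minimum mean of 5 TPM the counts of members past the threshold stayed within 1.5 times those reported, in each direction and in synthesis, oxidation and storage. Without a minimum 3 members were higher and 1 lower (synthesis 2 and 0, storage 0 higher), those being elovl7b, elovl1a, hadhab and lpin1. After TMM-type rescaling 4 were higher and 5 lower (synthesis 2, oxidation 0 and storage 1 higher), against 1274 and 809 of all tested genes. After quantile normalization 3 were higher and 6 lower (synthesis 2 and 2, oxidation 0 and storage 0 higher). Of all tested genes 1324 were then higher in place of 1766 and 962 lower in place of 547. Over all tested genes the median change went from 0.07 to -0.01 and -0.04 (log2) with these rescalings. With 1 library left out, a lone library was assumed to vary like the other group, and 1 to 2 members were higher and 0 to 1 lower (synthesis 1 to 2 higher and 0 lower, oxidation 0 higher, storage 0 higher and 0 to 1 lower). Over all tested genes 286 to 371 were then higher and 70 to 124 lower.

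The titles number the libraries 1 and 2 in both groups, and nothing says that a number pairs them (correlation of the deviations 0.065 over 20874 genes). With a replicate block 8 members were higher and 4 lower, the added one being srebf1 (log2 fold change -0.73, adjusted p = 0.010). Directions turned in 6 of the 81 members after TMM-type rescaling and in 7 after quantile normalization: acadl (-0.06 after TMM-type rescaling, -0.11 after quantile normalization), hadhaa (-0.01 and -0.03), ppargc1a (-0.08 and -0.09), ppargc1b (-0.03 and -0.05), dgat2 (-0.05 and -0.08), acadvl (-0.02 after quantile normalization only) and mogat3a (0.00 as deposited, -0.09 and -0.12). With 1 library left out the direction turned in 21 of the 81 in at least 1 fit. The change (log2) ran from -0.62 to 0.49 for elovl8b, -0.10 to 0.34 for acsl2, -0.06 to 0.34 for elovl4a, -0.10 to 0.21 for ppargc1b, -0.20 to 0.18 for lipca, -0.10 to 0.16 for acadl, -0.21 to 0.12 for pparaa, -0.65 to 0.14 for pparab, -0.08 to 0.38 for ppardb, -0.10 to 0.67 for pparg, -0.19 to 0.21 for ppargc1a, -0.19 to 0.06 for agpat2 and -0.01 to 0.07 for dgat2. It also turned in acad8, acadsb, acsl3b, agpat3, mogat3a, pnpla6, pnpla7b and pnpla8. None of these genes was past the threshold as deposited. TPM keeps no depth, so the counting error of low genes such as plin1 is unknown.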

Other observations

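Some members varied more between the libraries of a group than the rest. Over the 81 tested members the higher library of a pair was a median of 1.09 times the lower one in the controls and 1.1 times in the PM2.5 libraries. The ratio was above 1.5 in 2 members in the controls and in 7 in the PM2.5 libraries. The widest was that of elovl8b, an elongase known from fish, at 1.18 TPM in PM2.5 library 1 and 3.73 TPM in PM2.5 library 2, a ratio of 3.16. In the controls the widest was that of the hepatic lipase gene lipcb, at 5.68 and 13.3 TPM, a ratio of 2.34. The receptor genes pparab and pparg had ratios of 1.85 and 1.90 in the PM2.5 libraries, both with the lower level in PM2.5 library 1. These genes were picked for this description after their values were seen.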
